A study of Mus musculus with 15 samples.

Results

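The genes described are 50 DNA damage checkpoint and repair genes of the mouse, chosen by symbol and sorted by repair pathway. Of the 50, 44 had a probe row annotated to that gene alone, and each of the 44 had exactly 1 such row among the 16755 rows of the series. Atr, Xrcc2, Fancd2 and Lig1 had no row here, and Atrip and Lig3 were only on rows shared with another gene, so none of these 6 is described. Transcripts were measured on Affymetrix Mouse Exon arrays in mouse embryonic fibroblasts (MEFs) of strain C57BL/6J, with 3 arrays in each of 5 groups. Mta1-KO/Mta1 were Mta1-/- MEFs in which Mta1 was re-expressed, Mta1-KO were Mta1-/- MEFs and WT were wild-type MEFs, all from embryos of day 9.0. P53-KO/Mta1 were P53-/- MEFs over-expressing Mta1 and P53-KO were P53-/- MEFs, both from embryos of day 12.5, so that loss of P53 and embryo age cannot be told apart in any comparison of P53-KO with WT. The study received the P53-/- MEFs from another laboratory, so the origin of the cells cannot be told apart from loss of P53 either. Mta1 was introduced by transfection, and the labels do not say whether the 3 arrays of a group came from separate embryos, so the p-values measure the spread between arrays.

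Cells that meet damaged DNA halt the cell cycle through checkpoint kinases and mend the lesion by a pathway that depends on its kind. Double-strand breaks are repaired by homologous recombination or by end joining, crosslinks by the Fanconi anaemia pathway, damaged or mispaired bases by base excision or mismatch repair, and bulky lesions by nucleotide excision repair. Many of these genes are transcribed most in dividing cells, and P53, a transcription factor activated by DNA damage, arrests the cycle. Mta1 is a subunit of the NuRD chromatin remodelling and deacetylase complex.

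Values were log2 values that the authors had centred on the median of the 15 arrays for each row, so they carry differences between groups but no absolute level, and whether a transcript or a cell-type marker was absent could not be read from them. Replicate arrays correlated at 0.868 to 0.961 over all rows. The Mta1 row measured -1.13, -1.35 and -1.28 in the arrays labelled Mta1-KO/Mta1, against -1.06, -1.08 and -1.10 in Mta1-KO and 0.08, -0.06 and 0.00 in WT. It was thus lower in Mta1-KO than in WT (log2 difference -1.09, SE 0.0657, adjusted p = 6.17e-09), and no rise was measured in the arrays labelled Mta1-KO/Mta1 (difference from Mta1-KO -0.17, adjusted p = 0.0669). The study compared Mta1 protein in the 5 groups by Western blot, an image that was not read here. Within these data, directions drawn from those arrays rest on their label. In the P53-/- cells Mta1 rose by 0.27 in P53-KO/Mta1 over P53-KO (adjusted p = 0.00603). Trp53 had no single-gene row here, so the P53-KO label could not be checked on the gene itself. Of 11 fibroblast markers with a row, 10 rose and 0 fell in Mta1-KO against WT (17.6% and 22.6% of all rows). In P53-KO against WT, 9 rose and 1 fell (26% and 27.4% of all rows). Of the same markers, 8 fell and 0 rose in the arrays labelled Mta1-KO/Mta1 against Mta1-KO (15.7% and 12.4% of all rows). In P53-KO/Mta1 against P53-KO, 9 fell and 0 rose (14.2% and 15.7% of all rows). Markers of other cells also differed in Mta1-KO against WT. Neural markers gave 1 higher and 3 lower of 7 (lowest difference -4.46), and blood and macrophage markers 1 higher and 3 lower of 8 (lowest -1.7). Epithelial markers gave 0 higher and 1 lower of 6 (-1.23), muscle 3 and 0 of 5 (highest 1.54) and endothelial 2 and 0 of 7 (highest 1.1). In P53-KO against WT, neural markers gave 2 higher and 2 lower (-1.35 to 1.04), and blood and macrophage markers 0 and 2 (lowest -1.47). Epithelial markers there gave 1 and 1, muscle 1 and 1 and endothelial 1 and 0. In P53-KO/Mta1 against P53-KO, neural markers gave 2 higher and 1 lower (-1.06 to 1.21). Blood and macrophage markers gave 1 and 0, epithelial 2 and 0, muscle 1 and 0 and endothelial 0 and 0. The part of these markers in the repair genes' differences was not tested, and in such bulk samples fewer cells of a type and less RNA per cell cannot be told apart.

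Promoters are shown for 4 members that carry the patterns below: the checkpoint kinase gene Chek2 and the checkpoint adaptor gene Clspn, which rose both in the arrays labelled Mta1-KO/Mta1 against Mta1-KO and in P53-KO/Mta1 against P53-KO, the mismatch gene Msh3, which did the same, and Rpa2, which stood out in WT. Chek2, Clspn and Msh3 lost the P53-KO/Mta1 call under the t-test of the study's methods (adjusted p = 0.0697, 0.068 and 0.12). By the same t-test Chek2 and Clspn also lost the Mta1-KO/Mta1 call (adjusted p = 0.0729 for each). Each promoter runs from 250 bases before to 50 after the annotated start in RefSeq GRCm38.p6, 5′ to 3′ on the gene's strand. The letters searched on both strands were those of E2F factors, which drive S-phase genes (TTTCCCGC, TTTCGCGC, TTTGCCGC, TTTGGCGC), and the CCAAT box (CCAAT); capitals mark the matches. Chek2 lies at chr5:110839733-110840032 (+), Clspn at chr4:126556730-126557029 (+), Msh3 at chr13:92354954-92355253 (-) and Rpa2 at chr4:132768110-132768409 (+).
Chek2: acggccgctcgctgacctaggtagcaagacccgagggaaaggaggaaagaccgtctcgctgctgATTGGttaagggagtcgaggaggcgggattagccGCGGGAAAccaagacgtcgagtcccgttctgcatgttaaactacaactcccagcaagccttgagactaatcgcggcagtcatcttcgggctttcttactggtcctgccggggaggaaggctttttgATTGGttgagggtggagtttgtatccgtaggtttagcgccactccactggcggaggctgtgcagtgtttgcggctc
Clspn: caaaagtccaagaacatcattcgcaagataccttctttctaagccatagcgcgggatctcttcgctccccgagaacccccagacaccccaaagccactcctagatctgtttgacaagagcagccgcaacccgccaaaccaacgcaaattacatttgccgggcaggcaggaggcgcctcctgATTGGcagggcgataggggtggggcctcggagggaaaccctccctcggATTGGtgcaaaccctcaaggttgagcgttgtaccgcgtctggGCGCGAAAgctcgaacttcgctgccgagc
Msh3: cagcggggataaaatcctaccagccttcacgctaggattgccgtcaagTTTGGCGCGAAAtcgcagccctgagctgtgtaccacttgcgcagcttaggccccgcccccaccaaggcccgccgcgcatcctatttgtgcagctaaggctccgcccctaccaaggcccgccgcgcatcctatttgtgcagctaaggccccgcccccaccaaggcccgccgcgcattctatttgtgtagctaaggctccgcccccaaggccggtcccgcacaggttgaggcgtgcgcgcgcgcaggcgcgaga
Rpa2: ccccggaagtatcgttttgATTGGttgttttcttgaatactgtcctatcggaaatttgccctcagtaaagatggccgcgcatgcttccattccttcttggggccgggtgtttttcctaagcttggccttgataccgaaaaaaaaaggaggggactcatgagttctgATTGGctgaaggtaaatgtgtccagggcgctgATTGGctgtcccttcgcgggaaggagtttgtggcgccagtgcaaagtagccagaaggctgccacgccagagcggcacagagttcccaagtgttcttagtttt
Chek2 held E2F letters at -152 to -145, Clspn at 22 to 29 and Msh3 at -202 to -195 and -198 to -191, where both matches overlap. Rpa2 held 3 CCAAT boxes and no E2F letters. Of 38 members with a promoter in the table, 10 (26.3%) held E2F letters, against 2.6% of 27025 genes: Bard1, Brca2, Chek2, Clspn, Mdc1, Msh3, Msh6, Rad51c, Topbp1 and Xrcc6. CCAAT was in 57.9% of members and 41.1% of genes, and the cell cycle element TTTGAA in 2.63% of members and 20.2% of genes. Of the E2F carriers, Bard1, Mdc1, Rad51c and Xrcc6 rose in neither Mta1 comparison. Apex1, Atm, Blm, Brca1 and Parp1 rose in both and held no E2F letters. A match of letters is a description of the sequence only.

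**Figure D1:**
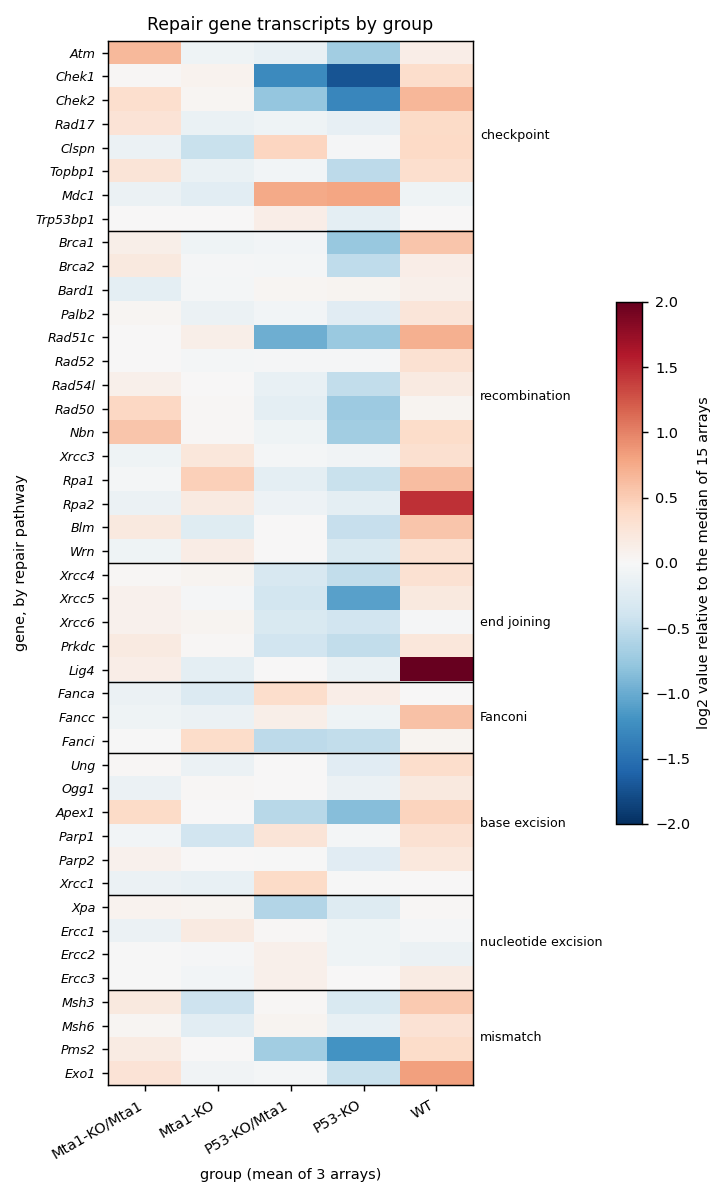
Mean log2 value of each of the 44 genes (rows, by repair pathway) in the 5 groups (columns, 3 arrays each), relative to the median of 15 arrays. The colour scale ends at 2, which the WT mean of Lig4 slightly passes; the P53-KO column is the lowest of the 5 for 26 genes and the WT column the highest for 30.

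Across the 5 groups, 42 of the 44 genes differed by the F test of limma with adjusted p under 0.05 (95.5%), against 63.2% of all rows. The median range of group means was 0.72 for these genes and 0.49 for all rows. WT was the highest group for 30 of the 44, against 21.6% of all rows, and P53-KO was the lowest for 26, against 20.9% of all rows. 

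In Mta1-KO against WT, 26 of the 44 genes fell and 1 rose (61.4% passed, against 40.2% of all rows, with 22.6% of rows lower and 17.6% higher). The median difference was -0.26 for the members and 0.03 for all rows. The 3 Mta1-KO arrays lay wholly below the 3 WT arrays for 29 members and wholly above them for 2, while 47.3% of all rows had no overlap in either direction. All 4 mismatch repair genes fell, as did 5 of 8 checkpoint genes, 7 of 14 recombination genes, 2 of 5 end joining genes, 2 of 3 Fanconi genes, 5 of 6 base excision genes and 1 of 4 nucleotide excision genes. The 1 that rose was Fanci, which forms a complex with Fancd2 at crosslinks (0.31, SE 0.0893, adjusted p = 0.0116).

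Lig4 and Rpa2 were the 2 members that changed at least 2-fold between Mta1-KO and WT, both downward. Of all rows 6.64% did so, and 2.41% downward. Lig4, the ligase that seals ends in end joining, measured -0.14, -0.19 and -0.26 in Mta1-KO, against 2.15, 2.18 and 1.74 in WT. Its values were 0.34, 0.00 and 0.04 in the arrays labelled Mta1-KO/Mta1. With Mta1 over-expressed, P53-KO/Mta1 had -0.33, 0.28 and 0.08, against -0.02, -0.04 and -0.33 in P53-KO, so that every array outside WT stood below the 3 WT arrays. The log2 difference of Mta1-KO from WT was -2.22 (SE 0.154, adjusted p = 2.77e-08) and that of P53-KO from WT was -2.15 (SE 0.154, adjusted p = 2.61e-08). These share the WT arrays. Lig4 did not pass in the arrays labelled Mta1-KO/Mta1 against Mta1-KO (0.32, adjusted p = 0.151).

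Rpa2, a subunit of the protein that coats single-stranded DNA, was also high in WT alone. It measured 0.23, 0.13 and 0.19 in Mta1-KO, against 1.37, 1.59 and 1.41 in WT (difference -1.27, SE 0.0772, adjusted p = 6.40e-09). It fell further in the arrays labelled Mta1-KO/Mta1, to -0.24, 0.02 and -0.12 (difference from Mta1-KO -0.30, adjusted p = 0.00938). That call was lost without Mta1-KO/Mta1 replicate 1 (difference -0.23). Rpa1, the large subunit of the same protein, did not pass in Mta1-KO against WT (-0.16, adjusted p = 0.108) but fell by 0.51 in the arrays labelled Mta1-KO/Mta1 against Mta1-KO (SE 0.0728, adjusted p = 0.000127). Its values were -0.15, 0.00 and 0.02 in the arrays labelled Mta1-KO/Mta1, against 0.42, 0.52 and 0.46 in Mta1-KO, without overlap.

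The mismatch repair genes had a median of -0.69 in Mta1-KO against WT, the lowest of the 7 pathways. Msh3, which recognises insertion loops, measured -0.43, -0.28 and -0.53 in Mta1-KO, against 0.64, 0.57 and 0.37 in WT (difference -0.94, SE 0.0937, adjusted p = 1.34e-06). Exo1, the nuclease that resects the nicked strand, measured -0.08, 0.00 and -0.13 in Mta1-KO, against 0.84, 0.89 and 0.72 in WT (difference -0.89, SE 0.0624, adjusted p = 3.12e-08). The arrays of these groups did not overlap for either gene. Pms2, an endonuclease of mismatch repair, fell by 0.35 (adjusted p = 0.000174) and Msh6, which recognises single mispairs, fell by 0.49 (adjusted p = 1.36e-05).

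Among the checkpoint genes, Clspn, the adaptor through which Atr activates Chek1, measured -0.37, -0.38 and -0.60 in Mta1-KO, against 0.38, 0.44 and 0.38 in WT (difference -0.85, SE 0.082, adjusted p = 9.50e-07). Chek2, the kinase activated by Atm, fell by 0.62 (adjusted p = 0.000131), Rad17, which loads the checkpoint clamp, by 0.52 (adjusted p = 0.000196) and Topbp1, an activator of Atr, by 0.48 (adjusted p = 2.72e-05). Chek1 fell by 0.29 (adjusted p = 0.0348), a call lost without WT replicate 2, Mta1-KO replicate 1 or Mta1-KO replicate 3 and under quantile normalization or the methods' t-test. Atm, Mdc1 and Trp53bp1 did not pass. Of the recombination genes, Blm, a helicase that dissolves crossed strands, measured -0.30, -0.13 and -0.29 in Mta1-KO, against 0.65, 0.63 and 0.41 in WT (difference -0.80, adjusted p = 6.52e-07). Brca1, which directs breaks into recombination, measured -0.09, 0.00 and -0.17 in Mta1-KO, against 0.64, 0.55 and 0.45 in WT (difference -0.63, adjusted p = 7.72e-06). Rad51c measured 0.05, 0.15 and 0.16 in Mta1-KO, against 0.67, 0.82 and 0.63 in WT (difference -0.59, adjusted p = 2.32e-06). In all 3 recombination genes the WT arrays stood above.

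The remaining recombination genes changed less between Mta1-KO and WT. Palb2, which links Brca1 to Brca2, fell by 0.35, Rad52, an annealing protein, by 0.34 and Nbn by 0.34. Brca2 (-0.16), Bard1, the partner of Brca1 (-0.15), Rad54l (-0.17), Rad50 (-0.03), Xrcc3 (-0.08) and Wrn (-0.14) did not pass. In end joining Xrcc4, the scaffold of Lig4, fell by 0.24, and the end-binding genes Xrcc5 (-0.22), Xrcc6 (0.07) and Prkdc (-0.20) did not pass.

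Of the 6 base excision genes 5 fell. Parp1, which senses strand breaks, measured -0.40, -0.35 and -0.40 in Mta1-KO, against 0.31, 0.32 and 0.31 in WT (difference -0.69, adjusted p = 1.14e-06). Apex1, the abasic site nuclease, measured -0.02, 0.00 and 0.06 in Mta1-KO, against 0.45, 0.48 and 0.41 in WT (difference -0.44, adjusted p = 0.000618). Ung, which removes uracil, fell by 0.46, Parp2 by 0.20 and Xrcc1, a scaffold of single-strand break repair, by 0.16, while Ogg1, which removes oxidised guanine, did not pass (-0.17). The core Fanconi genes Fancc and Fanca fell by 0.70 and 0.27, and in nucleotide excision repair Ercc3, a helicase of TFIIH, fell by 0.22 while Xpa (0.04), Ercc1 (0.21) and Ercc2 (0.10) did not pass.

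**Figure D2:**
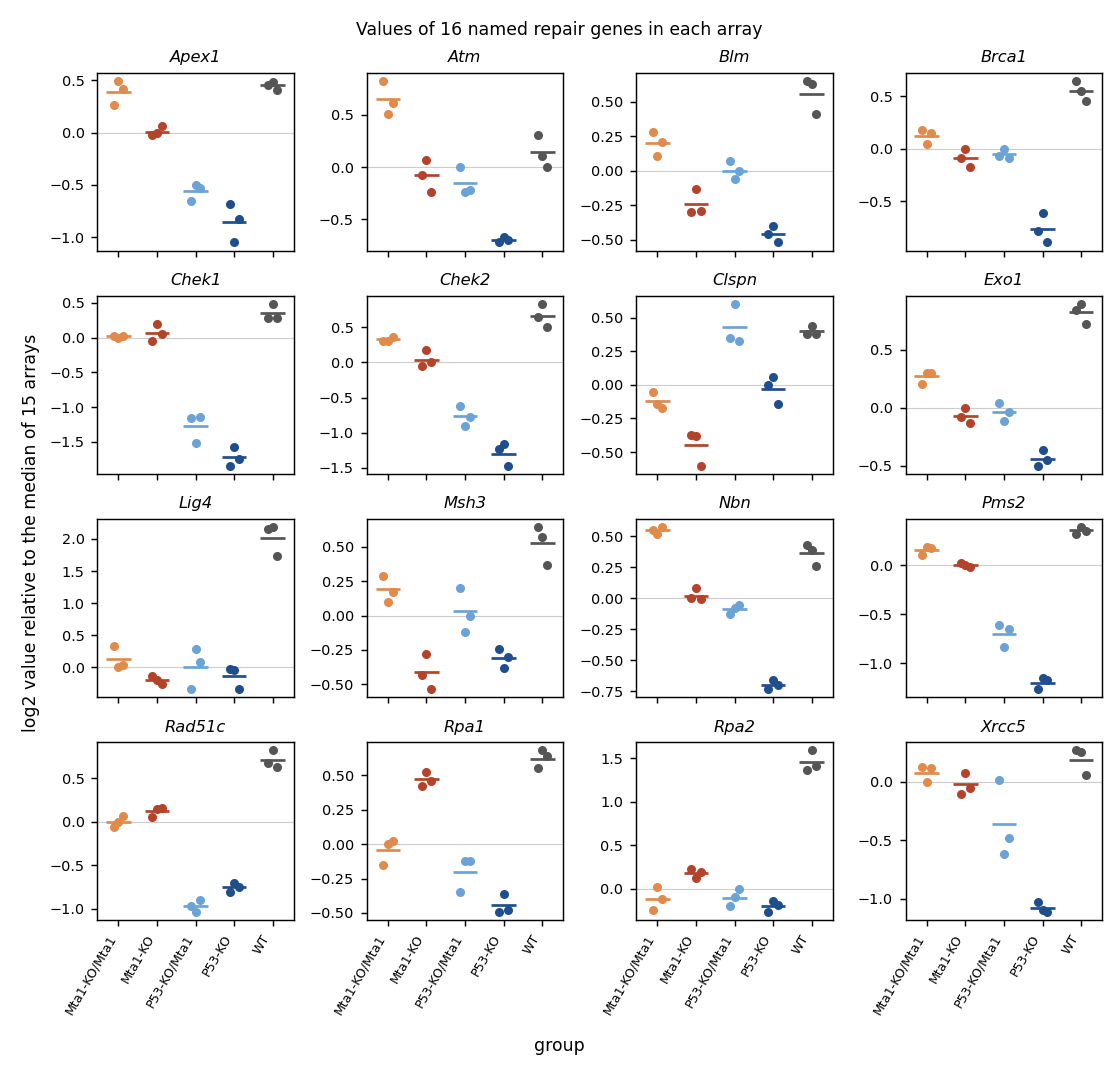
Log2 value in each array (points) and group mean (line) of 16 named genes, with groups ordered Mta1-KO/Mta1, Mta1-KO, P53-KO/Mta1, P53-KO, WT; vertical scales differ between panels. Lig4 and Rpa2 stand high in the WT arrays alone, while Chek1, Chek2 and Pms2 are low in both P53-/- groups.

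In the arrays labelled Mta1-KO/Mta1 against Mta1-KO, 15 of the 44 genes rose and 5 fell (45.5% passed, against 28% of all rows, with 12.4% higher and 15.7% lower). The arrays did not overlap for 20 members that stood above and 8 that stood below, against 41.1% of all rows. None reached 2-fold, against 1.11% of rows, and the median was 0.10, against -0.03 for all rows. The genes that rose lay in checkpoint signalling (5 of 8), recombination (5 of 14), mismatch repair (3 of 4) and base excision (2 of 6). No end joining, Fanconi or nucleotide excision gene rose. This comparison shares the Mta1-KO arrays with that of Mta1-KO against WT, so that a low value in them enters both.

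Atm, the kinase that senses double-strand breaks, had the largest increase of the 44. It measured 0.82, 0.51 and 0.61 in the arrays labelled Mta1-KO/Mta1, against -0.08, 0.07 and -0.24 in Mta1-KO (difference 0.73, SE 0.102, adjusted p = 0.000107). These arrays also stood above WT, at 0.31, 0.11 and 0.00. Msh3 rose by 0.60 (SE 0.0937, adjusted p = 0.000249) to 0.29, 0.10 and 0.17, still below WT. Nbn, which recruits Atm to breaks, measured 0.55, 0.52 and 0.57 in the arrays labelled Mta1-KO/Mta1, against 0.00, 0.08 and -0.01 in Mta1-KO (difference 0.53, SE 0.0517, adjusted p = 5.02e-06). Rad50, its partner in the same complex, rose by 0.38 (adjusted p = 0.00831).

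Blm rose by 0.44 (adjusted p = 0.00049), Topbp1 by 0.41 (adjusted p = 0.000286), Rad17 by 0.40 (adjusted p = 0.00275) and Apex1 by 0.38 (adjusted p = 0.00321). Parp1 rose by 0.32, Msh6 by 0.25 and Brca2 by 0.22. Clspn and Exo1 each rose by 0.33 (adjusted p = 0.0077 for Clspn and 0.00103 for Exo1). Chek2 (0.28, adjusted p = 0.0467) and Brca1 (0.21, adjusted p = 0.0498) lay close to the threshold. Leaving out any Mta1-KO/Mta1 array, or Mta1-KO replicate 1 or 3, lost the call of Chek2, and leaving out Mta1-KO replicate 1 or 3 or Mta1-KO/Mta1 replicate 1 or 3 lost that of Brca1. The methods' t-test and centring each array on its median also ended both calls (adjusted p = 0.0729 and 0.0534 for Chek2, 0.105 and 0.0626 for Brca1), the robust fit ended that of Brca1 (adjusted p = 0.0515), and the t-test ended those of Clspn (adjusted p = 0.0729) and Rpa2 (adjusted p = 0.0836). The 5 genes that fell were Rpa1, Fanci (-0.38), Xrcc3 (-0.32), Rpa2 and Wrn (-0.25). Compared with WT, the arrays labelled Mta1-KO/Mta1 had 24 members lower and 3 higher (Atm, Rad50 and Nbn), against 22.8% and 15.7% of all rows; 38.5% of all rows passed. By the methods' t-test 0 members were higher (adjusted p = 0.0519 for Atm and 0.0743 for Nbn). Their arrays did not overlap with WT for 26 members that stood below and 3 that stood above, against 47% of all rows. At least 2-fold lower were Lig4 (-1.90) and Rpa2 (-1.57), against 5.74% of rows changed 2-fold and 2.37% changed 2-fold downward.

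When Mta1 was over-expressed in P53-/- cells, 24 of the 44 genes rose and 2 fell in P53-KO/Mta1 (29.9% of all rows passed, 15.7% higher and 14.2% lower). By the methods' t-test after Benjamini-Hochberg adjustment, 11 members were higher and 0 lower. The median was 0.22, against -0.02 for all rows, and none reached 2-fold, against 1.62% of rows. The arrays did not overlap for 25 members that stood above and 2 that stood below, against 37.2% of all rows. The genes that rose included 6 of 8 checkpoint genes, 8 of 14 recombination genes, 4 of 6 base excision genes and all 4 mismatch repair genes, with 1 of 5 end joining, 1 of 4 nucleotide excision and 0 of 3 Fanconi genes. Rad51c (-0.21, adjusted p = 0.0166) and Xpa, which verifies bulky lesions (-0.33, adjusted p = 0.00844), fell. The Rad51c call was lost without P53-KO replicate 2 or P53-KO/Mta1 replicate 2 and under the methods' t-test (adjusted p = 0.0714).

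Xrcc5, the large subunit of Ku, which binds broken ends, measured 0.02, -0.62 and -0.48 in P53-KO/Mta1, against -1.03, -1.10 and -1.11 in P53-KO (difference 0.72, SE 0.124, adjusted p = 0.000497). The arrays did not overlap, but P53-KO/Mta1 replicate 1 stood apart from the other two of its group. Brca1 measured -0.07, 0.00 and -0.09 in P53-KO/Mta1, against -0.78, -0.61 and -0.89 in P53-KO (difference 0.71, SE 0.0751, adjusted p = 8.02e-06). Nbn rose by 0.61 (adjusted p = 9.86e-07), Atm by 0.55 (adjusted p = 0.00092) and Chek2 by 0.53 (adjusted p = 0.000946). The methods' t-test ended the calls of Xrcc5 (adjusted p = 0.0974) and Chek2 (adjusted p = 0.0697).

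Clspn measured 0.35, 0.60 and 0.33 in P53-KO/Mta1, against 0.00, 0.06 and -0.14 in P53-KO (difference 0.46, SE 0.082, adjusted p = 0.000706), and the P53-KO/Mta1 arrays overlapped with those of WT. Its call was lost under the methods' t-test (adjusted p = 0.068). Also higher by 0.30 to 0.52 were Rad50 (0.52), Brca2 (0.47), Blm (0.47), Topbp1 (0.46), Exo1 (0.40), Xrcc1 (0.39), Rad54l (0.35), Trp53bp1 (0.33), Wrn (0.32) and Parp1 (0.30). Msh6 and Parp2 each rose by 0.21 and Ercc2, the other helicase of TFIIH, by 0.19. Of these further genes, only Blm and Exo1 were followed one by one under the methods' t-test, and both kept their call. By the counts given above, that test called far fewer members higher than limma did. Some of the other further genes therefore lost their call, and which ones was not followed.

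Pms2 measured -0.61, -0.83 and -0.65 in P53-KO/Mta1, against -1.26, -1.15 and -1.17 in P53-KO (difference 0.50, adjusted p = 1.63e-05). Chek1 rose by 0.45 (adjusted p = 0.00325), to -1.15, -1.51 and -1.14, against -1.84, -1.58 and -1.75, so that P53-KO/Mta1 still stood far below WT. The methods' t-test did not call Chek1 (adjusted p = 0.131). Apex1 (0.29), Msh3 (0.33) and Rpa1 (0.25) rose with adjusted p = 0.0153, 0.0143 and 0.0191, and each lost its call when 1 of several arrays was left out: P53-KO replicate 2 or P53-KO/Mta1 replicate 2 for Apex1, P53-KO replicate 2 or P53-KO/Mta1 replicate 1 for Msh3, and P53-KO replicate 1 or 3 or P53-KO/Mta1 replicate 2 or 3 for Rpa1. All 3 also lost it under the methods' t-test and quantile normalization.

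**Figure D3:**
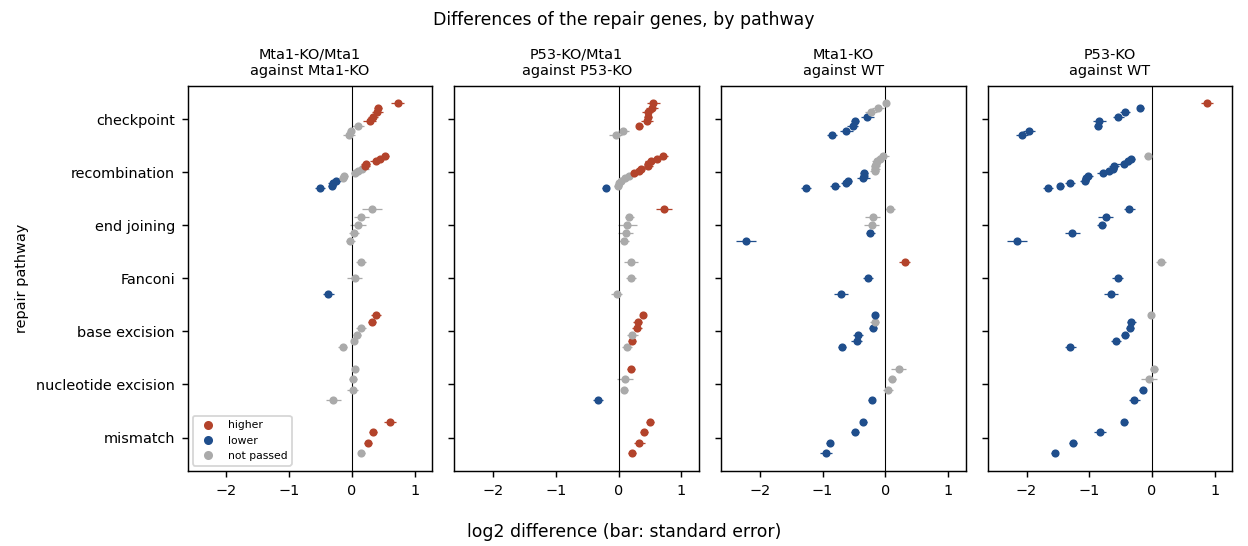
Log2 difference (point) and standard error (bar) of each of the 44 genes in 4 comparisons, by repair pathway, with red for higher, blue for lower and grey for not passed at adjusted p under 0.05. In Mta1-KO/Mta1 and P53-KO/Mta1, 15 and 24 genes lie to the right and passed; against WT, 26 genes in Mta1-KO and 38 in P53-KO lie to the left and passed.

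The comparisons of Mta1-KO/Mta1 with Mta1-KO and of P53-KO/Mta1 with P53-KO share no arrays. Both use the same estimate of each gene's spread, made over all 15 arrays, so a gene with little spread was favoured in both. Rising in both were 14 genes, which is 93.3% of the 15 and 58.3% of the 24: Apex1, Atm, Blm, Brca1, Brca2, Chek2, Clspn, Exo1, Msh3, Msh6, Nbn, Parp1, Rad50 and Topbp1. Among them Chek2 and Brca1 lay at the threshold in the first comparison. Apex1, Chek2, Clspn and Msh3 were not called in P53-KO/Mta1 by the methods' t-test. Brca2, Msh6, Parp1, Rad50 and Topbp1 were not followed one by one under that test. In the first comparison the same t-test did not call Chek2, Clspn or Brca1 (adjusted p = 0.0729, 0.0729 and 0.105). Over all rows, 1120 rose in both, 54.1% of those that rose in Mta1-KO/Mta1 as labelled and 42.7% of those that rose in P53-KO/Mta1. Rpa1 and Wrn, a helicase and nuclease, fell in the first and rose in the second, and 0 members fell in both.

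The difference of Mta1-KO/Mta1, as labelled, from Mta1-KO minus that of P53-KO/Mta1 from P53-KO, called the difference between the Mta1 responses, passed as lower for 10 of the 44 genes and as higher for 0 (17.4% of all rows passed, 10.1% lower and 7.31% higher). This split depended on the scaling, since quantile normalization gave 6 lower and 4 higher. It was largest for Rpa1 (-0.76, SE 0.103, adjusted p = 0.000176), followed by Xrcc5 (-0.62, adjusted p = 0.0259), Wrn (-0.57, adjusted p = 0.00298), Chek1 (-0.50, adjusted p = 0.0262) and Brca1 (-0.49, adjusted p = 0.00498). Under quantile normalization Xrcc5 (-0.39, adjusted p = 0.143), Chek1 (-0.49, adjusted p = 0.0665), Brca1 (-0.23, adjusted p = 0.18) and Pms2 (-0.15, adjusted p = 0.188) lost their calls. Atm, Nbn, Blm and Topbp1 gave differences between -0.08 and 0.18, none past the threshold. The Mta1 row differed in the same contrast as well (-0.44, adjusted p = 0.00418), and its part in these differences was not tested.

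In P53-KO against WT, 38 of the 44 genes fell and 1 rose (53.5% of all rows passed, 27.4% lower and 26% higher). The median was -0.62, against 0.04 for all rows, and 13 members were at least 2-fold lower, against 7.26% of rows (12.1% in either direction). The arrays did not overlap for 38 members that stood below WT and 2 that stood above, against 54.8% of all rows. Chek1, the kinase that stalls the cycle at damaged forks, measured -1.84, -1.58 and -1.75 in P53-KO, against 0.29, 0.48 and 0.29 in WT (difference -2.07, SE 0.101, adjusted p = 4.83e-10). Chek2 measured -1.24, -1.17 and -1.47 in P53-KO, against 0.65, 0.83 and 0.51 in WT (difference -1.96, SE 0.099, adjusted p = 7.31e-10). For both kinases the P53-KO/Mta1 arrays lay between these groups, without overlap with either.

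Rpa2 fell by 1.66, Pms2 by 1.55, Rad51c by 1.46, Brca1 by 1.31, Apex1 by 1.30, Xrcc5 by 1.27, Exo1 by 1.26, Rpa1 by 1.07, Nbn by 1.06 and Blm by 1.02, with adjusted p between 3.35e-11 for Pms2 and 6.13e-07 for Xrcc5. All 5 end joining and all 4 mismatch repair genes fell. Among the members under 2-fold, Topbp1 (-0.86), Atm (-0.84), Msh3 (-0.83), Xrcc4 (-0.80), Rad50 (-0.78) and Prkdc, the end joining kinase (-0.74), fell most. Bard1, Fanca, Xrcc1, Ercc1 and Ercc2 were the 5 that did not pass. Mdc1, a scaffold at marked breaks, was the 1 that rose: it measured 0.67, 0.99 and 0.72 in P53-KO, against 0.07, -0.11 and -0.22 in WT (difference 0.88, SE 0.0978, adjusted p = 2.43e-06). Nucleotide excision genes moved least, with Xpa and Ercc3 lower (-0.28 and -0.15) and Ercc1 and Ercc2 not past the threshold.

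A further list of repair genes was counted in the same way. Of 136 with a row, 69 fell and 12 rose in Mta1-KO against WT (22.6% and 17.6% of all rows). In the arrays labelled Mta1-KO/Mta1 against Mta1-KO, 32 rose and 26 fell (12.4% and 15.7% of all rows). In P53-KO/Mta1 against P53-KO, 49 rose and 11 fell (15.7% and 14.2% of all rows). In P53-KO against WT, 98 fell and 15 rose (27.4% and 26% of all rows). Dna2, a resection nuclease, fell by 1.93 in Mta1-KO against WT and rose by 1.12 in the arrays labelled Mta1-KO/Mta1. Rfc4, a clamp loader subunit, fell by 2.07 and Fen1, a flap nuclease, by 1.95 in P53-KO against WT. Hells, a chromatin remodeller, was 2.01-fold higher and Primpol, which restarts stalled forks, 0.97 higher on the log2 scale when Mta1 was over-expressed in P53-/- cells.

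Genes of proliferation moved alongside. Of 37 with a row, 19 fell and 2 rose in Mta1-KO against WT (22.6% and 17.6% of all rows). In the arrays labelled Mta1-KO/Mta1 against Mta1-KO, 13 rose and 0 fell (12.4% and 15.7% of all rows). In P53-KO/Mta1 against P53-KO, 27 rose and 0 fell (15.7% and 14.2% of all rows). In P53-KO against WT, 29 of the proliferation genes fell and 3 rose (27.4% and 26% of all rows). Their median per array was -0.45, -0.42 and -0.48 in P53-KO, against 0.25, 0.27 and 0.13 in WT. The 44 members gave -0.26, -0.33 and -0.32 in P53-KO, against 0.33, 0.30 and 0.23 in WT, and the part of proliferation in the members' differences was not tested. Of 17 P53 target genes, 10 rose and 2 fell in Mta1-KO against WT (17.6% and 22.6% of all rows), among them Cdkn1a, the inhibitor of cyclin-dependent kinases (2.95, adjusted p = 4.09e-13). In P53-KO against WT 9 fell and 5 rose (27.4% and 26% of all rows), with Mdm2, which degrades P53, at -0.74 (adjusted p = 1.69e-06) and Cdkn1a at -0.20 (adjusted p = 0.0319). The list gave 7 higher and 4 lower in the arrays labelled Mta1-KO/Mta1 against Mta1-KO (12.4% and 15.7% of all rows). In P53-KO/Mta1 against P53-KO it gave 7 higher and 6 lower (15.7% and 14.2% of all rows).

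**Figure D4:**
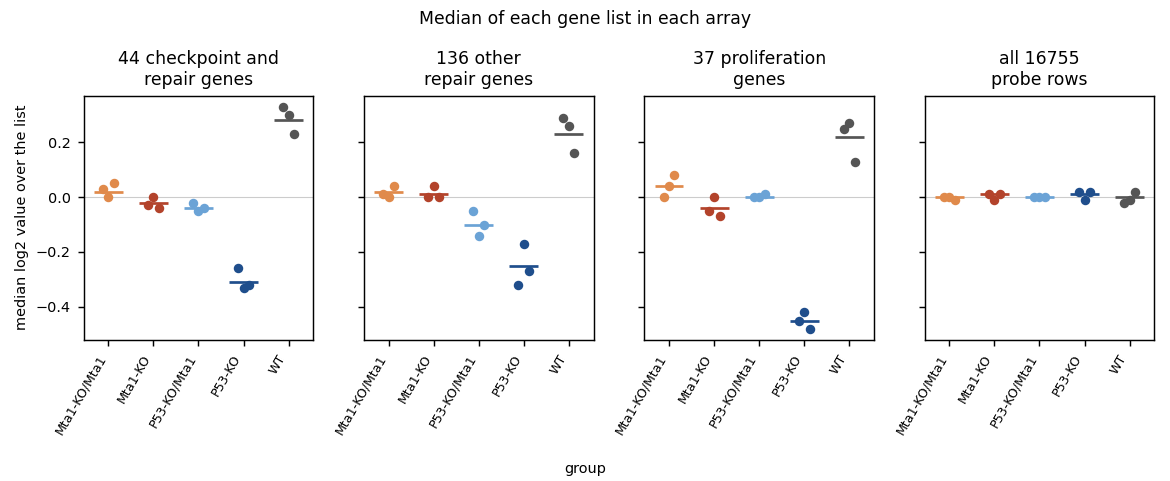
Median log2 value of each list in each array (points, with the group mean as a line), relative to the median of 15 arrays. The 44 checkpoint and repair genes, the 136 other repair genes and the 37 proliferation genes are lowest in P53-KO and highest in WT, while the median of all 16755 rows lies near 0 in each group.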

How the data were processed

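RNA of 15 MEF samples was hybridised to Affymetrix Mouse Exon arrays, 3 per group. The deposited values are log2 values that the authors normalized in GeneSpring and centred on each row's median over the 15 arrays; the sources used here do not give how exon probes were summarised. Gene names came from the platform annotation, and of 14996 single-gene rows 14941 matched a current Entrez entry with 0 symbols changed. One linear model with the 5 groups was fitted to all 16755 rows with limma 3.58.1 in R 4.3.3 (moderated test, two-sided, Benjamini-Hochberg over all rows, threshold 0.05), tested on simulated data. Python 3.11.15 and matplotlib 3.10.9 made the summaries and plots. The members, gene lists and tests were chosen with earlier results of these data known. Values in every array were given for members that passed with at least a 2-fold change in any contrast, for the 5 largest passing differences in each of the 3 main comparisons, and for Brca1 and Chek1, which the study links to MTA1; of other repair genes up to 4 per comparison were named by size. Further genes given array by array were chosen after their values were seen. Precision is limited by the 3 arrays per group. Alternatives were the methods' t-test, other normalizations, fits on the compared arrays, a robust fit, thresholds, a replicate block and leaving out each array. Dim probes could not be filtered because centred values hold no level. Same-numbered arrays were checked for shared deviations.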

Additional observations from a re-analysis of the deposited data

Results flagged for a closer look

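For 10 genes the difference of Mta1-KO/Mta1, as labelled, from Mta1-KO was unlike that of P53-KO/Mta1 from P53-KO by the limma test of the difference itself, and in each it was the lower one. The log2 differences of the responses were -0.76 for Rpa1, -0.62 for Xrcc5, -0.57 for Wrn, -0.50 for Chek1, -0.49 for Brca1, -0.40 for Rpa2, -0.35 for each of Xrcc3, Xrcc1 and Pms2, and -0.34 for Trp53bp1. Rpa1 and Wrn passed in opposite directions, Xrcc3 and Rpa2 fell in the arrays labelled Mta1-KO/Mta1 without passing in P53-KO/Mta1, and Xrcc5, Chek1, Xrcc1, Pms2 and Trp53bp1 rose in P53-KO/Mta1 without passing in the arrays labelled Mta1-KO/Mta1. Brca1 rose in both. The calls of Chek1, Xrcc5 and Rpa2 were each lost when 1 of several single arrays was left out. Quantile normalization ended the calls of Brca1 (-0.23, adjusted p = 0.18), Pms2 (-0.15, adjusted p = 0.188), Xrcc5 (-0.39, adjusted p = 0.143) and Chek1 (-0.49, adjusted p = 0.0665).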

How the results depend on the processing

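Of 96 log2 differences of the named genes, 74 passed, and over 918 alternative values of these 844 kept direction and call, 74 lost the call and 0 changed direction. Most named genes were picked for large passing differences in the same data, which favours keeping the call, so these counts do not describe all members. Under the methods' t-test after Benjamini-Hochberg adjustment, 3 members were lower in Mta1-KO/Mta1 against Mta1-KO, 11 higher and 0 lower in P53-KO/Mta1 against P53-KO, and 0 higher in Mta1-KO/Mta1 against WT. With quantile normalization the difference between the Mta1 responses had 4 members higher and 6 lower, and values that had not passed changed sign: Blm 0.21, Exo1 0.17 and Nbn 0.21 in that difference and Apex1 0.10 in Mta1-KO/Mta1 against WT. At adjusted p under 0.01, 0 members were higher in Mta1-KO against WT, 1 was lower in P53-KO/Mta1 against P53-KO and 6 were lower in the difference. At a minimum fold of 1.5 in place of 2, 11 members passed in Mta1-KO against WT, 2 in Mta1-KO/Mta1 against Mta1-KO, 3 in P53-KO/Mta1 against P53-KO, 2 in the difference, 5 in Mta1-KO/Mta1 against WT and 24 in P53-KO against WT.

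Leaving out each array in turn gave 0 to 1 higher, 23 to 29 lower and 2 to 3 at 2-fold in Mta1-KO against WT; 12 to 15 higher and 4 to 5 lower in Mta1-KO/Mta1 against Mta1-KO; 21 to 26 higher and 1 to 2 lower in P53-KO/Mta1 against P53-KO; 0 to 1 higher and 8 to 14 lower in the difference; 2 to 3 higher and 19 to 24 lower in Mta1-KO/Mta1 against WT; 1 to 2 higher, 36 to 38 lower and 12 to 13 at 2-fold in P53-KO against WT; and 41 to 44 by the F test. It turned the sign of values that had not passed: Chek1 in Mta1-KO/Mta1 against Mta1-KO (range -0.10 to 0.02, highest without Mta1-KO replicate 2), Blm in the difference (range -0.07 to 0.03; 0.03 without Mta1-KO replicate 2, 0.02 without Mta1-KO/Mta1 replicate 2, 0.01 without P53-KO/Mta1 replicate 1) and Apex1 in Mta1-KO/Mta1 against WT (range -0.10 to 0.01, highest without Mta1-KO/Mta1 replicate 1). The cause was not tested. With the replicate number as a block, 27 members were lower in Mta1-KO against WT and 15 higher in Mta1-KO/Mta1 against Mta1-KO. In the same fit 25 were higher in P53-KO/Mta1 against P53-KO and 11 lower in the difference. Same-numbered arrays correlated between -0.379 and 0.423 in their deviations. Differently numbered arrays were not compared, so these correlations do not show whether the numbers pair the arrays. Each member had 1 row, so the choice among rows could not be varied.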
